A study of Arabidopsis thaliana with 12 samples.

Results

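RAB18 and 9 further genes of the abscisic acid response were followed across shoots of 2 Arabidopsis thaliana accessions and the hybrids between them. The 10 genes were taken by identifier from 32992 genes with a value, with earlier results of these data known. RAB18 was chosen by its measured RPKM, which stood above the mean of both parents in the hybrid C24/Col. All 10 were among the 17927 genes that reached 1 RPKM (reads per kilobase of gene and per M mapped reads, where M is 1e6) in at least 3 libraries and entered the tests. The groups were the hybrids C24/Col and Col/C24 and the inbred accessions C24 and Col, with 3 replicates each. All were wild type, and all shoots came from seedlings aged 14 days that had 8 h of light at 22 °C and 16 h of dark at 18 °C. No group received abscisic acid or a water deficit according to the labels. Which parent was the mother of either cross, how many seedlings made up a replicate and whether replicates were grown separately are points the labels leave unstated. The p-values below therefore measure the spread between these samples, which may be technical.

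Abscisic acid is the hormone through which plants respond to drought, salt and cold and hold seeds dormant. It binds receptors of the PYR/PYL family, and the bound receptors block the clade A protein phosphatases that include ABI1, ABI2, HAB1 and HAI1. Protein kinases of the SnRK2 group are then freed from the phosphatases and activate transcription factors such as ABF3, which bind abscisic acid response elements before genes such as RAB18 and RD29B. The phosphatase genes are themselves induced by the hormone, and NCED3 encodes the enzyme that limits its synthesis under drought.

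The DNA before the start codons of the genes was searched for 2 short motifs, as a description. The window was the 500 bases before the start codon, with any annotated leader included, read from TAIR10.1, which is the genome of Col. The sequence of C24 was not used here. The motifs were ACGTG, the core of the abscisic acid response element, and CCGAC, the core of the dehydration and cold response element bound by CBF and DREB factors. Both strands were read, and overlapping matches to 1 motif, as in its palindrome, counted once. In the lines for RAB18, RD29B and LTI30 the capitals mark the match, written along the coding strand of the gene, so that CACGT and GTCGG are the motifs on the other strand.
RAB18, 457 bases before the start codon, chr5:26519594-26519622, minus strand: caacgacgatgtACGTGtgtatgaaaatc
RAB18, 405 bases before the start codon, chr5:26519542-26519570, minus strand: aggaggagcattACGTGtcctgttagcta
RAB18, 312 bases before the start codon, chr5:26519449-26519477, minus strand: gattgatatgaaCACGTacttggtatcga
RAB18, 227 bases before the start codon, chr5:26519364-26519392, minus strand: tttaaatacgaaCACGTatggcgaaacac
RAB18, 206 bases before the start codon, chr5:26519343-26519371, minus strand: cgaaacaccacgCCGACattttctgctgc
RD29B, 327 bases before the start codon, chr5:21236866-21236894, plus strand: atgggccaataaACGTGgaccgactaaaa
RD29B, 245 bases before the start codon, chr5:21236948-21236976, plus strand: atgtcgcatagcCACGTagagagcaactg
RD29B, 222 bases before the start codon, chr5:21236971-21236999, plus strand: caactggctgagACGTGgcaggacgaaac
RD29B, 194 bases before the start codon, chr5:21236999-21237027, plus strand: cggacgcatcgtACGTGtcagaatcctac
RD29B, 320 bases before the start codon, chr5:21236873-21236901, plus strand: aataaacgtggaCCGACtaaaactaaata
LTI30, 182 bases before the start codon, chr3:18940631-18940659, plus strand: gatgtcggccaaCACGTattgagtaaaat
LTI30, 283 bases before the start codon, chr3:18940530-18940558, plus strand: agttaaaattacGTCGGtcgctaaccact
LTI30, 260 bases before the start codon, chr3:18940553-18940581, plus strand: accactactacaCCGACgtcttacttgcc
LTI30, 191 bases before the start codon, chr3:18940622-18940650, plus strand: tacttttacgatGTCGGccaacacgtatt
RAB18 and RD29B each held 4 matches to ACGTG, a number reached by 0.6% of 27443 windows before protein-coding genes, and each held 1 match to CCGAC. LTI30 held 3 matches to CCGAC, a number reached by 0.8% of the windows, and 1 match to ACGTG. HAI1 had 2 matches to ACGTG, while NCED3 and RD26 had 1 each, and RD26 also had 1 to CCGAC. Not all of these matches lay upstream of the annotated gene. The RAB18 matches 227 and 206 bases before the start codon lay within it, as did the ACGTG matches of LTI30, HAI1 and NCED3. No match to either motif stood in the windows of ABI1, ABI2, HAB1 or ABF3, which lay wholly within the annotated genes. DNA upstream of these genes was therefore not searched. The window of NCED3 also lay wholly within its gene. At least 1 match to ACGTG was present in 34.9% of all windows, and at least 1 to CCGAC in 23.4%. RAB18 and RD29B were named above as genes behind abscisic acid response elements. Their number of matches is therefore no separate link to their levels in the hybrids. A match describes letters and shows neither a bound site nor a cause.

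**Figure D1:**
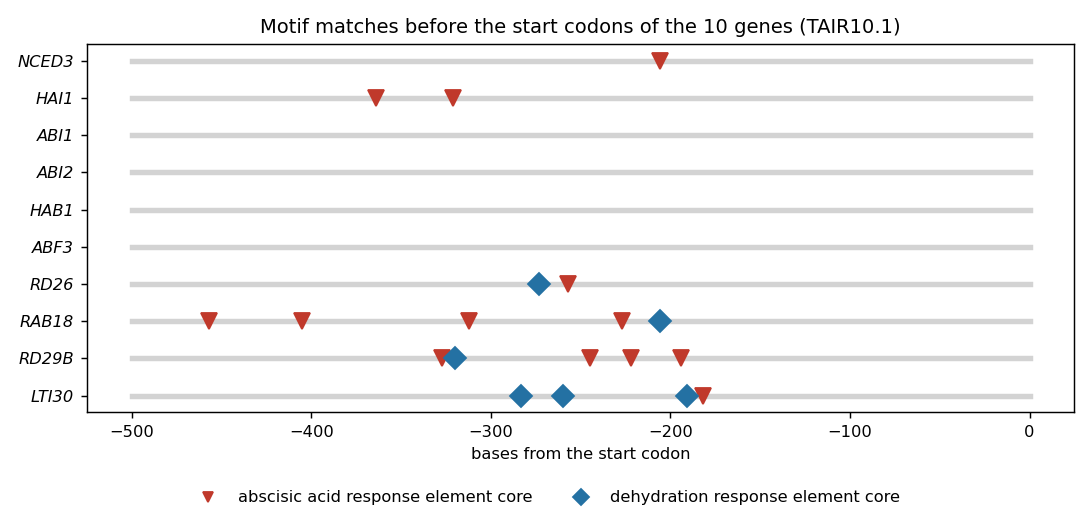
Positions of motif matches in the 500 bases before the start codon of each gene, with the distance from the start codon in bases on the horizontal axis. Triangles mark ACGTG and diamonds CCGAC. RAB18 and RD29B carry 4 triangles each, LTI30 carries 3 diamonds, and 4 genes carry no mark. For these 4 genes the window lay wholly within the annotated gene.

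Depth, estimated from the steps between low values, ran from 15.6 to 26.7 M reads per library. The shoot markers RBCS1A, CAB3, CA1 and GLDP1 summed to between 19860 and 29070 RPKM per library, with RBCS1A the highest. Of the root markers IRT1 was at 0 in all 12 libraries, and PYK10 had 70.1 to 113 RPKM. The share of ribosomal RNA in the summed values ran from 0.23% to 4.49%. It was 0.23% to 0.44% in C24 and 0.58% to 2.69% in Col, so that these accessions differed in it without overlap. In tissue like this, fewer cells of a type and less RNA per cell cannot be told apart.

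NCED3 (AT3G14440, chr3:4831286-4834015), the synthesis gene, had RPKM values of 11.02, 7.68 and 3.02 in C24/Col replicates 1 to 3, 7.36, 4.54 and 1.53 in Col/C24, 4.27, 7.09 and 4.48 in C24 and 7.08, 3.94 and 1.32 in Col. All 4 groups overlapped, and replicate 3 was the lowest of its group except in C24. The group means were 7.24 ± 4.02 RPKM in C24/Col, 4.48 ± 2.92 in Col/C24, 5.28 ± 1.57 in C24 and 4.11 ± 2.88 in Col (SD, n = 3 each).

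Among the phosphatases, ABI2 (AT5G57050, chr5:23087122-23089631) had RPKM values of 5.82, 6.87 and 5.30 in C24/Col, 3.92, 6.43 and 5.15 in Col/C24, 7.61, 8.08 and 8.88 in C24 and 3.84, 5.64 and 5.18 in Col. Every C24 library lay above every library of the other 3 groups, which overlapped with each other. HAB1 (AT1G72770, chr1:27389948-27393327) had RPKM values of 12.1, 13.7 and 11.7 in C24/Col, 10.6, 11.8 and 12.2 in Col/C24, 12.7, 15.4 and 15.2 in C24 and 12.02, 13.04 and 11.7 in Col. C24 had the highest mean, 14.5 ± 1.52 RPKM against 12.3 ± 0.684 in Col (SD, n = 3 each), but its lowest library fell within the range of Col.

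HAI1 (AT5G59220, chr5:23894404-23896939) had RPKM values of 4.81, 8.34 and 3.65 in C24/Col, 3.90, 8.35 and 3.18 in Col/C24, 4.54, 5.96 and 3.92 in C24 and 2.18, 6.10 and 2.85 in Col. ABI1 (AT4G26080, chr4:13219915-13222376), the most abundant of the 4 phosphatases, had RPKM values of 38.8, 48.8 and 21.6 in C24/Col, 28.7, 40.1 and 18.4 in Col/C24, 25.0, 40.6 and 23.6 in C24 and 35.7, 39.3 and 20.3 in Col. For both genes replicate 2 was the highest library in every group, and the groups overlapped throughout.

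The transcription factor ABF3 (AT4G34000, chr4:16295334-16298285) had RPKM values of 27.4, 33.0 and 28.6 in C24/Col, 26.4, 37.4 and 28.2 in Col/C24, 27.7, 36.0 and 31.4 in C24 and 26.0, 34.8 and 36.1 in Col. Its group means lay between 29.6 and 32.3 RPKM, and the groups overlapped. RD26 (AT4G27410, chr4:13707192-13709170), a NAC transcription factor induced by drought and abscisic acid, had RPKM values of 35.0, 34.9 and 26.7 in C24/Col, 27.9, 27.5 and 20.0 in Col/C24, 23.4, 29.7 and 21.4 in C24 and 32.4, 29.8 and 19.7 in Col. C24/Col had the highest mean, 32.2 ± 4.76 RPKM (SD, n = 3), and replicate 3 was the lowest library of every group.

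RAB18 (AT5G66400, chr5:26518277-26519447), a dehydrin, which is a hydrophilic protein made by drying cells, had RPKM values of 58.4, 70.3 and 63.3 in C24/Col, 59.3, 52.4 and 52.4 in Col/C24, 43.4, 45.3 and 43.65 in C24 and 30.1, 34.9 and 33.0 in Col. All 6 hybrid libraries stood above all 6 parental libraries, and every C24 library stood above every Col library. The share of all genes with C24 and Col apart in this way, as ABI2 and LTI30 also were, was not counted. The means ran in the order C24/Col (64.0 ± 5.97 RPKM), Col/C24 (54.7 ± 3.98), C24 (44.1 ± 1.01) and Col (32.7 ± 2.40; SD, n = 3 each), and of the neighbours in this order C24/Col and Col/C24 alone overlapped.

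RD29B (AT5G52300, chr5:21237021-21239531), a hydrophilic protein of drying cells and a standard reporter of abscisic acid, had RPKM values of 2.26, 3.82 and 2.85 in C24/Col, 3.22, 2.03 and 2.43 in Col/C24, 1.13, 1.33 and 1.51 in C24 and 0.33, 1.29 and 0.81 in Col. As with RAB18, every hybrid library lay above every parental one, but C24 and Col overlapped. These low values rest on an estimated 19 reads in Col replicate 1 and up to 183 in C24/Col replicate 2.

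LTI30 (AT3G50970, chr3:18940643-18941611), a dehydrin best known from cold, had RPKM values of 3.20, 3.85 and 3.59 in C24/Col, 2.73, 3.42 and 3.30 in Col/C24, 1.79, 2.12 and 1.36 in C24 and 4.24, 8.21 and 4.96 in Col. It ran opposite to RAB18 between the accessions: the Col libraries were the highest, the C24 libraries the lowest, and the hybrids lay between them without touching either. The means were 3.55 ± 0.327 RPKM in C24/Col, 3.15 ± 0.369 in Col/C24, 1.76 ± 0.381 in C24 and 5.80 ± 2.12 in Col (SD, n = 3 each).

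**Figure D2:**
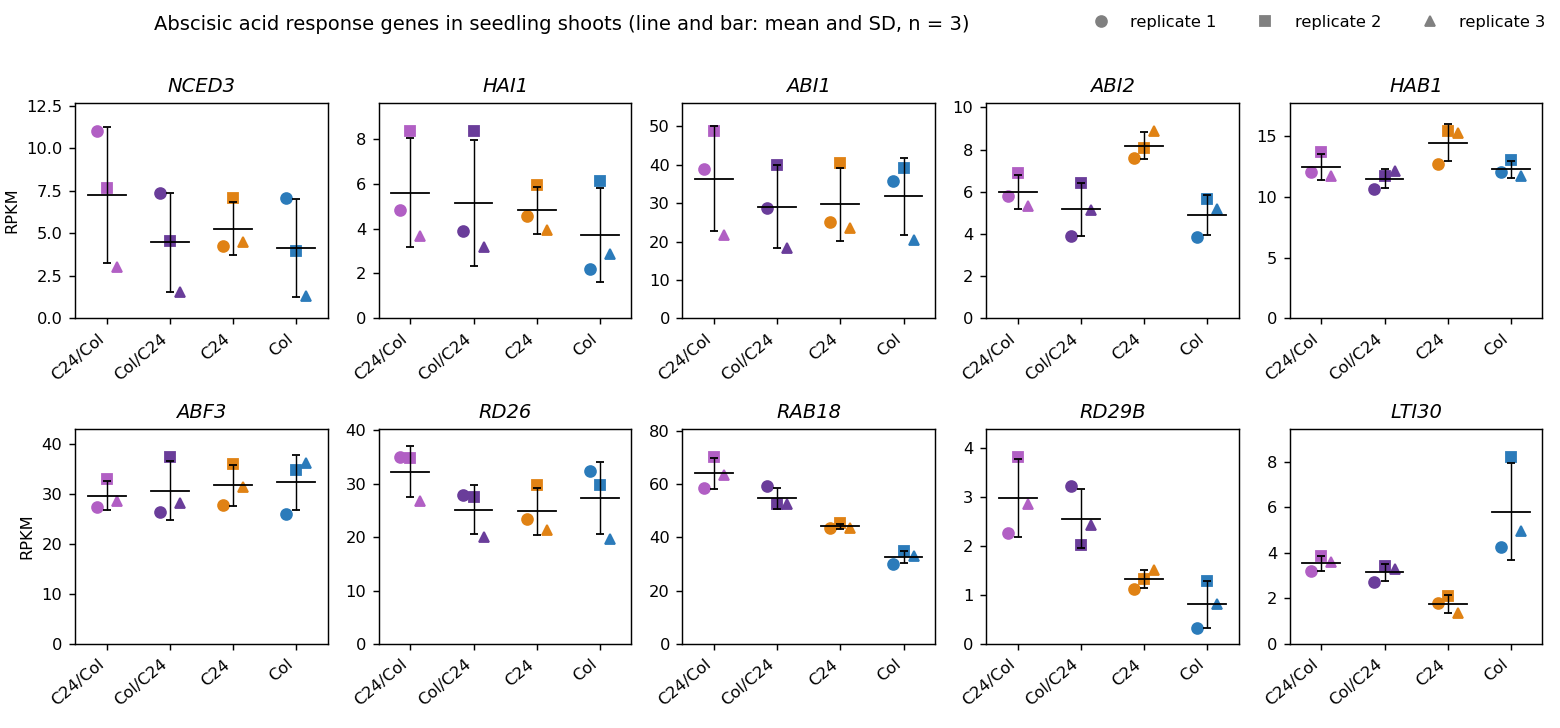
RPKM (vertical axis, a separate scale for each gene, starting at 0) of the 10 genes in every library of C24/Col, Col/C24, C24 and Col, with lines and bars for the mean and SD of 3 replicates. RAB18 and RD29B are higher in all 6 hybrid libraries than in all 6 parental ones, ABI2 is highest in C24, and LTI30 is highest in Col and lowest in C24.

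3 of the genes overlap a neighbour at their ends in TAIR10.1, ABI1 by 22 bases, ABF3 by 24 and RAB18 by 11, and the labels do not say whether counting used the strand. The neighbour of ABI1, AT4G26070, had 10.4 to 16.5 RPKM over the 12 libraries, and that of ABF3, AT4G34020, had 18.6 to 27.9. The neighbour of RAB18, AT5G66410, had 15.9 to 18.7 RPKM over the 12 libraries. Whether reads of these neighbours entered the values of the 3 genes was not tested.

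The hybrids were set against the mid-parent, the mean RPKM of the C24 and Col libraries with the same replicate number. This is the contrast that chose RAB18, and its values are given for all 10 genes as a description without a test. The mid-parent is shared by both hybrids. RAB18 averaged 64.0 ± 5.97 RPKM in C24/Col, beside 54.7 ± 3.98 in Col/C24, against a mid-parent of 38.4 ± 1.65 (SD, n = 3 each). The ratios of means were 1.67 in C24/Col and 1.42 in Col/C24, and on the log2(RPKM + 1) scale the differences were 0.72 (SD 0.07) and 0.50 (SD 0.16) in the same order of hybrids. RD29B averaged 2.98 ± 0.788 RPKM in C24/Col, with 2.56 ± 0.606 in Col/C24, against a mid-parent of 1.07 ± 0.301, with ratios of 2.79 in C24/Col and 2.40 in Col/C24. RD26 differed from its mid-parent by 0.30 (SD 0.07) in C24/Col and by -0.05 in Col/C24 on the log2 scale. NCED3 differed by 0.44 in C24/Col and by -0.18 in Col/C24, and HAI1 by 0.30 in C24/Col and 0.17 in Col/C24. ABI1 differed by 0.20 in C24/Col and -0.10 in Col/C24. HAB1 lay below the mid-parent in every replicate of both hybrids, by -0.09 in C24/Col and -0.20 in Col/C24. ABI2 (-0.11 in C24/Col, -0.31 in Col/C24), ABF3 (-0.10 in C24/Col, -0.07 in Col/C24) and LTI30 (-0.05 in C24/Col, -0.18 in Col/C24) also had negative means.

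In C24/Col 5 of the 10 genes (NCED3, HAI1, RD26, RAB18 and RD29B) were above the same-numbered mid-parent in all 3 replicates, as were 21.8% of all genes tested, and HAB1 was below it in all 3, as were 22.9%. In Col/C24 RAB18 and RD29B were above it in all 3 replicates, as were 5.41% of all genes, and ABI2 and HAB1 were below it in all 3, as were 43.0%. The 10 genes were listed with earlier results known and include RAB18, chosen by its C24/Col value. Their counts and medians here only describe them. The median difference over the 10 genes was 0.25 in C24/Col and -0.09 in Col/C24. Over the 46 other tested genes of the pathway it was 0.02 in C24/Col and -0.07 in Col/C24, and over all genes 0.00 in C24/Col and -0.09 in Col/C24. The pattern of RAB18 and RD29B, with all 6 hybrid libraries above all 6 parental ones, was shown by 16 genes of 17927 (0.0893%) and by none of the 46 other pathway genes. Taken singly, C24/Col lay above all 6 parental libraries for 0.904% of all genes and Col/C24 for 0.134%, in each case with RAB18 and RD29B as the 2 of the 10. The libraries of C24/Col lay below all parental ones for 1.5% of all genes and those of Col/C24 for 2.87%, with 0 of the 10 in either. All 6 hybrid libraries lay below all 6 parental ones for 84 genes (0.469%), among them 1 pathway gene, BG1, which encodes a glucosidase that releases abscisic acid from its stored ester. BG1, picked out after its values were seen, had 35.0 to 42.1 RPKM in C24/Col, with 31.65 to 43.95 in Col/C24, against 55.6 to 105 in C24 and 51.9 to 56.7 in Col.

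**Figure D3:**
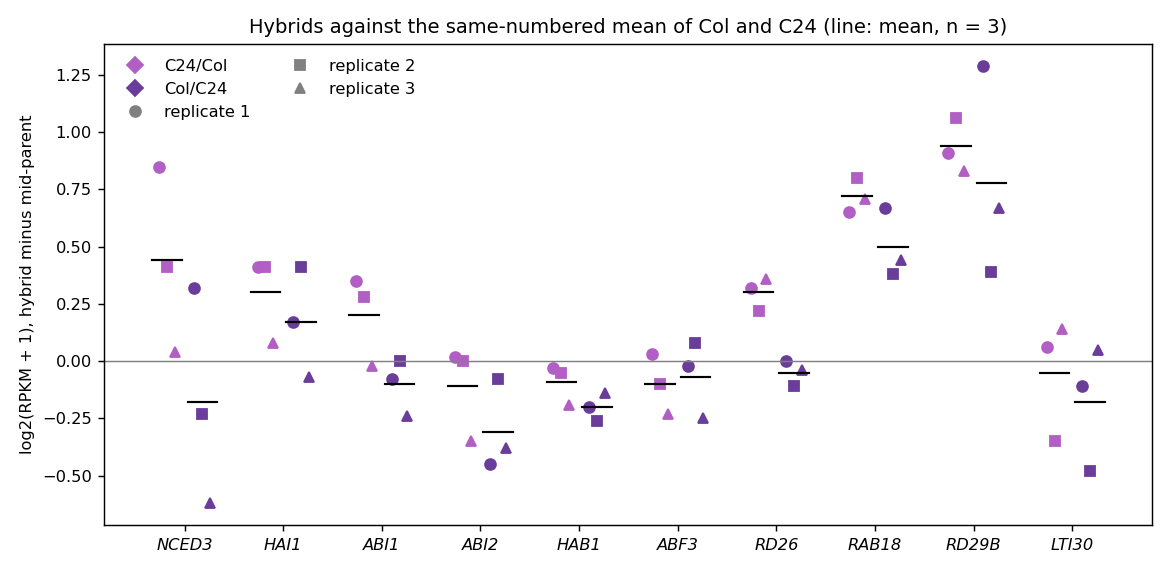
Difference of each hybrid library from the mid-parent of the same replicate number on the log2(RPKM + 1) scale (vertical axis), with lines at the mean of 3 replicates. RAB18 and RD29B lie above 0 in all replicates of both hybrids, RAB18 at means of 0.72 in C24/Col and 0.50 in Col/C24, RD29B at means of 0.94 in C24/Col and 0.78 in Col/C24.

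Seed transcripts were present in some hybrid libraries. The summed RPKM of 8 seed markers was 0.15 to 143 in C24/Col and 0.22 to 53.8 in Col/C24, against 0.00 to 0.15 in C24 and 0.10 to 0.63 in Col. Of these markers 1 was at 0 in all 3 libraries of C24/Col, 5 in Col/C24, 6 in C24 and 4 in Col. CRC, a cruciferin seed storage protein and the seed marker with the highest mean, had RPKM values of 12.03, 0.00 and 77.8 in C24/Col, 23.4, 0.05 and 0.03 in Col/C24, 0.00 in all C24 libraries and at most 0.02 in Col. The cruciferin CRA1 was present at 12.2 RPKM in C24/Col replicate 1, 50.4 in C24/Col replicate 3 and 27.6 in Col/C24 replicate 1. In the other 3 hybrid libraries CRA1 was at most 0.16 RPKM, and RAB18 there was 70.3 RPKM in C24/Col replicate 2 and 52.4 in both Col/C24 replicates 2 and 3, above all parental libraries. RAB18 differed from the same-numbered mid-parent by 0.80 in C24/Col replicate 2 and by a mean of 0.41 in Col/C24 replicates 2 and 3 on the log2 scale. RD29B in those libraries was 3.82 RPKM in C24/Col replicate 2 and 2.03 and 2.43 in Col/C24 replicates 2 and 3. In C24/Col the library with little CRA1 was thus the highest of its group for both genes. In Col/C24 the highest was replicate 1, with CRA1, at 59.3 RPKM of RAB18 and 3.22 of RD29B. A link with seed transcripts was not tested. EM6, a late embryogenesis gene and abscisic acid target of seeds, reached 0.94 RPKM in C24/Col replicate 3 and was at 0 in the 3 hybrid libraries with little CRA1.

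C24 was compared with Col to see which of the genes differ between the accessions, a contrast that the choice of RAB18 did not use. ABI2 and RAB18 were higher in C24 and LTI30 was lower, so that 3 of the 10 genes passed, where 22.7% of all genes tested passed (10.3% higher and 12.4% lower). Tests used limma on log2(RPKM + 1), adjusted by Benjamini and Hochberg over all 17927 genes. ABI2 averaged 8.19 ± 0.642 RPKM in C24, against 4.89 ± 0.935 in Col (SD, n = 3 each), a log2 fold change of 0.65 (SE 0.16, limma adjusted p = 0.0144). The ABI2 call was lost without Col replicate 1 (adjusted p = 0.0556), without C24 replicate 3 (0.0528) and when the share of ribosomal RNA was a covariate (0.0857). RAB18 had a log2 fold change of 0.42 (SE 0.09, limma adjusted p = 0.00469), and LTI30 of -1.27 (SE 0.19, limma adjusted p = 0.000667). With the replicate number as a block in limma, a fit that called 41.8% of all genes, these 3 genes also passed. Adjusted p there was 0.000777 for ABI2, 0.00108 for RAB18 and 2.43e-05 for LTI30.

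HAB1 did not pass, at a log2 fold change of 0.22 (SE 0.09, limma adjusted p = 0.13). It passed with the replicate number as a block (adjusted p = 0.0325), a fit that called 41.8% of all genes and 4 of the 10, and without C24 replicate 1 (0.0455). RD29B, at 0.39 (SE 0.21, adjusted p = 0.213), and HAI1, at 0.38 (SE 0.37, adjusted p = 0.525), did not pass in limma. NCED3 (0.45, SE 0.55), RD26 (-0.12, SE 0.20), ABI1 (-0.08, SE 0.37) and ABF3 (-0.02, SE 0.16) had adjusted p between 0.619 and 0.948. The median log2 fold change was 0.30 over the 10 genes, 0.04 over the 46 other pathway genes and -0.01 over all genes.

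Of 64 other pathway genes listed, 46 were tested and 5 passed, 1 higher and 4 lower in C24. ABCG25, which exports abscisic acid from cells, was higher, at 7.35 ± 0.341 RPKM in C24 beside 4.50 ± 0.396 in Col (0.61 on the log2 scale, limma adjusted p = 0.000302). The synthesis gene ABA2 was lower, at 9.22 to 12.2 RPKM in C24, below the 15.6 to 21.5 of Col (-0.69, limma adjusted p = 0.00526). The receptor PYL2 was lower and close to the detection filter, at 0.740 ± 0.173 RPKM in C24, with 1.30 ± 0.122 in Col (-0.41, limma adjusted p = 0.0215). The stress genes KIN2 and RD29A fell most, and both are also induced by cold. KIN2 had 65.2 ± 3.92 RPKM in C24, beside 303 ± 76.6 in Col (-2.17, limma adjusted p = 3.73e-05), although it lies beside the closely similar KIN1 and how shared reads were counted is not given. RD29A, the neighbour of RD29B in the genome, had 5.61 ± 2.25 RPKM in C24, against 35.6 ± 22.5 in Col (-2.36, limma adjusted p = 0.00868; SD, n = 3 each throughout). The hybrids had 15.4 ± 9.45 RPKM of RD29A in C24/Col, with 11.3 ± 7.10 in Col/C24, between the parental means, where RD29B was above both parents. No further dehydrin passed: of 5 listed besides RAB18 and LTI30, 4 were tested, and COR47 had 323 ± 98.1 RPKM in C24, where Col had 325 ± 35.0. With the replicate block 19 of the 46 passed, 8 higher and 11 lower, against 20.2% and 21.5% of all genes, and they included the breakdown gene CYP707A3 (1.89, adjusted p = 0.000171).

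**Figure D4:**
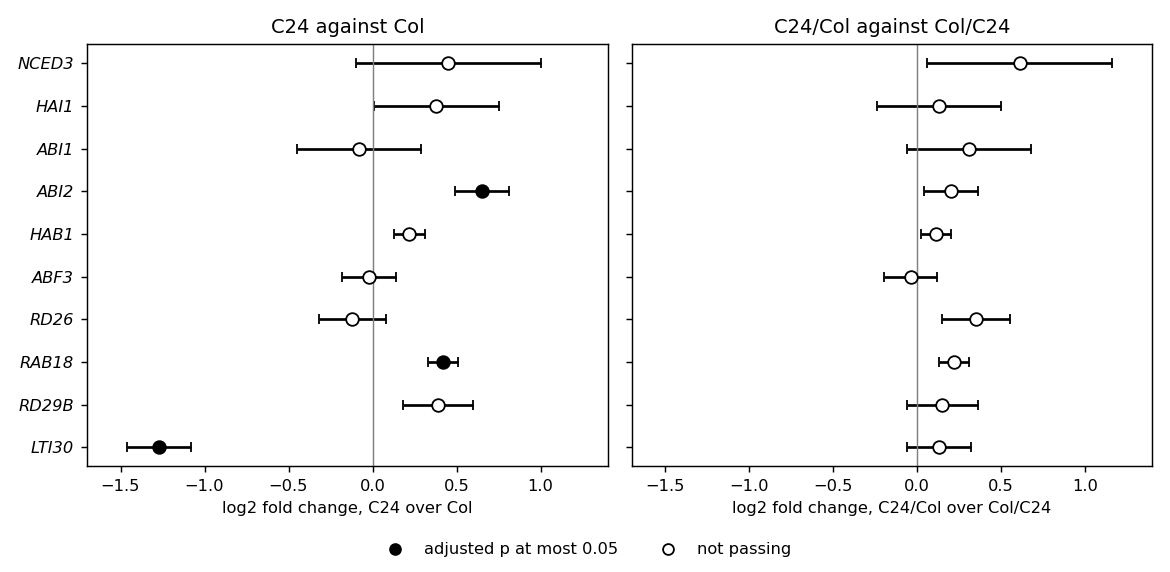
Log2 fold change on the log2(RPKM + 1) scale for C24 over Col (left) and C24/Col over Col/C24 (right), with bars of 1 SE from limma; filled points have an adjusted p of at most 0.05. ABI2 and RAB18 are filled above 0 and LTI30 below 0 on the left, and no point is filled on the right.

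The reciprocal hybrids were compared for an effect of the direction of the cross. This comparison shares the C24/Col libraries with the contrast that chose RAB18, so the choice favours a positive estimate for RAB18 here. None of the 10 genes passed, as was so for all genes tested (0.0% in limma, smallest adjusted p = 0.747). An unadjusted limma p under 0.05 was reached by 745 of 17927 genes and by 1 of the 10, RAB18. RAB18 averaged 64.0 ± 5.97 RPKM in C24/Col, against 54.7 ± 3.98 in Col/C24 (SD, n = 3 each), a log2 fold change of 0.22 (SE 0.09, limma adjusted p = 0.935). The largest estimate was for NCED3, 0.61 (SE 0.55, adjusted p = 0.942), followed by RD26 at 0.35 (SE 0.20, adjusted p = 0.935) and ABI1 at 0.31 (SE 0.37, adjusted p = 0.953). Estimates were positive for 9 of the 10 genes and -0.04 for ABF3, with a median of 0.18, beside 0.08 over all genes. The share of positive estimates over all genes was not counted. With the replicate block still no gene passed (smallest adjusted p = 0.0916). There 2377 of 17927 genes had an unadjusted limma p under 0.05, with RAB18, ABI1 and RD26 as 3 of the 10. No difference between the crosses is drawn from these unadjusted values.

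Levels also varied with the replicate number, which every group shares. Replicate 1 was tested against replicates 2 and 3, with group as a term, since its libraries were known to stand apart. In limma 4 of the 10 genes passed, where 34.1% of all genes passed (16.6% higher and 17.5% lower). NCED3 was higher in replicate 1, with a mean over the 4 groups of 7.43 RPKM, against 5.81 in replicate 2 and 2.59 in replicate 3 (log2 difference 0.78, SE 0.21, limma adjusted p = 0.0157). This call was lost without replicate 1 of Col/C24 (adjusted p = 0.0784), of Col (0.0698) or of C24/Col (0.0651). ABF3 was lower, with 26.9 RPKM in replicate 1, 35.3 in replicate 2 and 31.1 in replicate 3 (-0.29, SE 0.06, limma adjusted p = 0.00448). ABI2 (-0.26, adjusted p = 0.0321) and HAI1 (-0.33, adjusted p = 0.0361) were also lower in replicate 1, and both calls were lost with no filter on low values, at 0.0683 for ABI2 and 0.0818 for HAI1. With 1 library left out at a time, both calls were lost without any 1 of Col replicates 1, 2 and 3, C24 replicate 3, Col/C24 replicates 1 and 2 and C24/Col replicate 2. ABI2 also lost its call without Col/C24 replicate 3 and HAI1 without C24/Col replicate 1, and adjusted p in these fits ran from 0.0507 to 0.154 for ABI2 and to 0.153 for HAI1. RD26, at 0.18 (adjusted p = 0.0592), passed under median-of-ratios scaling (0.0275) and without C24 replicate 1 (0.00321), 2 (0.0474) or 3 (0.0437). ABI1 (0.09, adjusted p = 0.485) passed without C24 replicate 1 (0.0416). HAB1 had -0.13 (0.0893). RAB18 had a log2 difference of -0.05 (adjusted p = 0.497), RD29B of -0.20 (0.294, and 0.0352 without Col/C24 replicate 1) and LTI30 of -0.21 (0.125). Of the other pathway genes 33 of 46 passed, 15 higher and 18 lower.

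An F-test in limma over all 3 replicate numbers, added after the data had been seen, called 38.3% of all genes, 6 of the 10 and 36 of the 46 other pathway genes. The 6 were ABI1 (adjusted p = 9.64e-05), HAI1 (0.000443), RD26 (0.00156), NCED3 (0.00459), ABF3 (0.00524) and ABI2 (0.0461). The 3 targets did not pass, at 0.0606 for LTI30, 0.437 for RD29B and 0.494 for RAB18. ABF3 was lowest in replicate 1 in all 4 groups, as were 14.0% of all genes tested, and ABI1 and RD26 were lowest in replicate 3 in all 4 groups, as were 6.67%. None of the 10 was highest in replicate 1 (13.4% of all genes) or in replicate 3 (5.83%) in all 4 groups. The phosphatases did not share 1 pattern over the replicates. ABI1 averaged 32.0 ± 6.33 RPKM in replicate 1, 42.2 ± 4.46 in replicate 2 and 20.9 ± 2.18 in replicate 3 (SD over 4 libraries), and HAI1 averaged 3.86 ± 1.18, 7.19 ± 1.34 and 3.40 ± 0.477 RPKM in replicates 1, 2 and 3. Replicate 2 was the highest of the 3 in all 4 groups for HAI1, ABI1 and LTI30, as for 8.99% of all genes tested, and for the phosphatase HAI2 and the proline synthesis gene P5CS1 among 8 of the other pathway genes. The phosphatase AHG3 averaged 35.5 RPKM in replicate 1, 28.6 in replicate 2 and 41.6 in replicate 3 (F-test adjusted p = 0.00976), with replicate 2 the lowest in 3 of 4 groups. Replicate 2 was the lowest of the 3 in all 4 groups for the receptor genes PYR1, PYL1, PYL4, PYL5 and PYL6, as for 6.91% of all genes and 6 of the 46 other pathway genes. The rest of the 9 tested receptors did not share this. PYL7 and PYL9 were lowest in replicate 3 in all 4 groups (6.67% of all genes), and PYL8 was highest there in all 4 (5.83%). PYL2 did not pass (F-test adjusted p = 0.39). PYL4 averaged 103 ± 17.7 RPKM in replicate 1, 37.3 ± 6.69 in replicate 2 and 106 ± 18.5 in replicate 3 (F-test adjusted p = 2.07e-06). PYL5 had 35.4 to 56.0 RPKM in replicate 1, 13.5 to 14.9 in replicate 2 and 36.4 to 48.3 in replicate 3 (5.79e-06). The share of ribosomal RNA did not follow the replicate number, at 0.32% to 2.47% in replicate 1, 0.23% to 2.69% in replicate 2 and 0.44% to 4.49% in replicate 3.

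**Figure D5:**
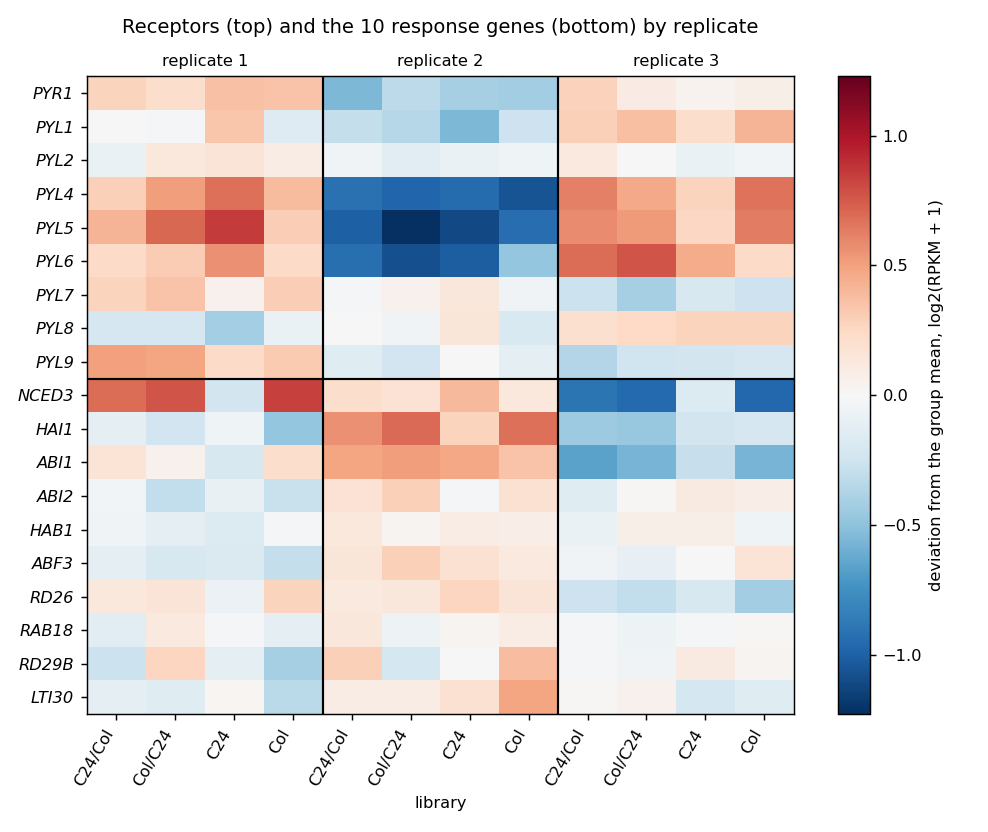
Colour shows the deviation of log2(RPKM + 1) from the mean of the group for 9 tested receptor genes (upper rows) and the 10 response genes (lower rows) in the 12 libraries, ordered by replicate number. PYR1, PYL1, PYL4, PYL5 and PYL6 are blue in all 4 libraries of replicate 2, where HAI1 and ABI1 are red, while RAB18 is pale throughout. Other receptors differ, with PYL7 and PYL9 lowest and PYL8 highest in replicate 3 of all 4 groups.

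The genes most like RAB18 over the 12 libraries were sought by the root-mean-square difference between mean-centred log2(RPKM + 1) profiles, a description over 6055 genes. Of those with a symbol and a mean of at least 5 RPKM the nearest were TGG2 (0.202), TGG1 (0.206), HB24 (0.208), MLP28 (0.217), EULS3 (0.22) and PRXR1 (0.227). TGG1 had means of 2021 and 2179 RPKM in the 2 hybrids, 2163 in C24 and 1305 in Col. In TGG1 C24 thus reached the hybrids, which was not so for RAB18. Among the 10 genes RD29B was nearest to RAB18 (0.202), followed by RD26 (0.392) and HAB1 (0.405), and LTI30 was farthest (0.694).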

How the data were processed

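Oligo(dT)-selected RNA of 12 shoot libraries was sequenced. The authors aligned reads with TopHat to TAIR10, per the submitters' processing notes. The counter, annotation and strand setting were not given in the sources used here. Each deposited value is an RPKM of 1 gene, a unit read from the values themselves, because low values step by 1 read. Those steps, in genes of 150 to 600 bp and with a tolerance of 0.15 reads, gave the depths, and whole reads resulted for 61.3% to 75.2% of them, too few to recover counts. Of 34133 lines per library, 1141 with a repeated identifier were left out.

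The genes and the list of 64 other pathway genes were chosen with earlier results of these data known. All 10 genes are named, as are pathway genes that pass in C24 against Col, the top marker of each tissue and the 6 nearest profiles; HAI2, P5CS1, AHG3, CYP707A3, COR47, EM6, BG1 and the receptors were named after their values were seen. Genes that reached 1 RPKM in 3 or more libraries entered limma 3.58.1 (R 4.3.3) on log2(RPKM + 1), which understates changes of low genes, with a mean-variance trend, all 12 libraries together and a threshold of 0.05 on adjusted p. The fit was tried on simulated data with independent noise and no replicate effect. These data have such an effect, so the simulation does not show how the fit performs on them. Python 3.11.15, numpy 2.4.6, pandas 2.3.3 and matplotlib 3.10.9 did the rest. TAIR10.1 gave coordinates and sequences.

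The replicate numbers paired the samples by the data: deviations from group means correlated at 0.54 to 0.83 in 18 same-number pairs and at -0.65 to 0.19 in 36 pairs of unlike number. The labels do not mention a shared batch. Alternatives were a pseudocount of 0.1, no filter, median-of-ratios scaling, ribosomal RNA as a covariate, the replicate block, a geometric mid-parent and each library left out. For the comparisons between groups, a fit of only the compared groups was added. The block was also combined with the scaling and, separately, with the covariate.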

Additional observations from a re-analysis of the deposited data

How the results depend on the processing

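Of 560 values of single genes under the alternatives, 509 kept their direction and side of the threshold, 26 lost and 10 gained a call, and no called value reversed. In the other 15, which were not called, the sign turned. The 560 include the reciprocal hybrids, where no gene was called. Only a call can be lost, and the main fits called 3 of the 10 genes for C24 against Col and 4 for replicate 1. The 26 losses are therefore to be set against those calls and not against 560. RAB18 in C24/Col, 0.72 log2 units over mid-parent, ranged from 0.65 to 0.78 with 1 hybrid library or 1 mid-parent left out and the other side complete, and from 0.68 to 0.75 with both of a number left out together. In Col/C24 it ranged from 0.44 to 0.53 and from 0.41 to 0.56 in these ways. In the C24/Col library with CRA1 below 10 RPKM the RAB18 difference was 0.80 against the mid-parent of its own number and 0.86 against the mean of all 3 mid-parents. In the Col/C24 libraries with CRA1 below 10 RPKM it was 0.41 against the mid-parents of the same numbers. The joint removal and the CRA1 values were added after seeing the data. For C24 against Col the genes called of the 10 numbered 2 to 4 with 1 library left out and 2 with the ribosomal RNA covariate. With the replicate block they numbered 4, beside 3 without it, and over all genes the block raised the calls to 7490, against 4071. For the reciprocal hybrids the number called was 0 in every fit, the block included. For replicate 1 it was 4, but 2 with no filter and 1 to 6 with 1 library left out, and for the F-test it was 5 to 7 with 1 library left out. The cause of these shifts was not tested. Depth limits RD29B and LTI30, with 19 estimated reads of RD29B in Col replicate 1 and 28 of LTI30 in C24 replicate 3.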
